A study of Mus musculus with 2 samples.

Results

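The amino acid transporter genes described here are the rows of the count tables whose symbol belongs to the Slc1a, Slc3a, Slc6a, Slc7a, Slc36a, Slc38a or Slc43a families, 64 of 21878 rows. Of these, 40 had 20 or more counts summed over both libraries and are described, and 24 had fewer. PolyA RNA was sequenced from the liver of FVB/N mice that had received c-Myc by hydrodynamic injection, a fast, large-volume tail vein injection that carries DNA into hepatocytes. The first library came from a liver given TSA and the second from a liver with no treatment, called untreated here, so that both carry the c-Myc injection. The labels do not spell out TSA and give no dose, duration or age. They also do not say whether a sample was tumour, whole liver or a pool of animals. The libraries held 17088227 counts (TSA) and 17281523 counts (untreated), 1 library per group, so no difference has a replicate check and no p-value is given. The intervals in parentheses are 95% and cover counting error only.

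Amino acids cross the plasma membrane on carriers of several unrelated families. Some move their substrate together with sodium or protons and can concentrate it inside the cell, whereas others exchange an amino acid inside the cell for another outside. Adult hepatocytes are known for system N and system A carriers, which bring in glutamine and alanine for urea and glucose synthesis, and for a low-affinity carrier of arginine and lysine. Dividing and transformed cells are known instead for a glutamine exchanger, a leucine exchanger and a high-affinity arginine carrier. Slc7 light chains reach the cell surface only when bound to an Slc3 heavy chain.

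The carriers differed in both directions and by wide margins. *Slc38a3*, the main system N glutamine carrier of hepatocytes, reached 848 FPKM in the TSA library, against 58.8 FPKM in the untreated library. *Slc7a5*, the light chain of the leucine exchanger LAT1, was at 2.20 FPKM with TSA, against 66.6 FPKM without treatment. *Slc7a1*, the high-affinity arginine and lysine carrier, was at 0.460 FPKM with TSA and 40.5 FPKM without treatment. FPKM is the authors' count per kilobase of gene model and scaled to the total of the same library, so levels of different genes can be compared on it.

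Ratios were taken as TSA over untreated after TMM scaling, and a gene was called where the libraries differed by 2-fold or more and the counting interval did not reach 1. TMM sets the scale on the premise that the bulk of genes is equal in both libraries. It raised every ratio 1.80-fold over the ratio of total counts, and the deposited FPKM, scaled to totals, does not contain that factor. Of the 40 members 12 (30%) were called higher and 18 (45.0%) lower, and 10 (25.0%) were neither. Over all 13027 genes with enough counts, 26.0% were called higher and 27.4% lower. With total counts 9 members (22.5%) were higher and 22 (55.0%) lower, beside 16.0% and 48.7% of all genes. The share of members lower was thus above that of all genes on TMM scaling and nearer to it on total counts. The median log2 ratio of the members was -0.66 with TMM, with the 4 members at 0 counts in the TSA library set at their bound, and -0.11 over all genes. The difference of the 2 medians, -0.55, turned to 0.047 when genes under 100 summed counts were left out. Ratios of at least 10-fold were found in 4 of 39 carriers that were higher (10.3%) and 10 that were lower (25.6%), against 7.81% and 5.50% of all genes. A carrier here is a member other than *Slc7a6os*, which matches by name but codes for a protein that is not a carrier.

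**Figure D1:**
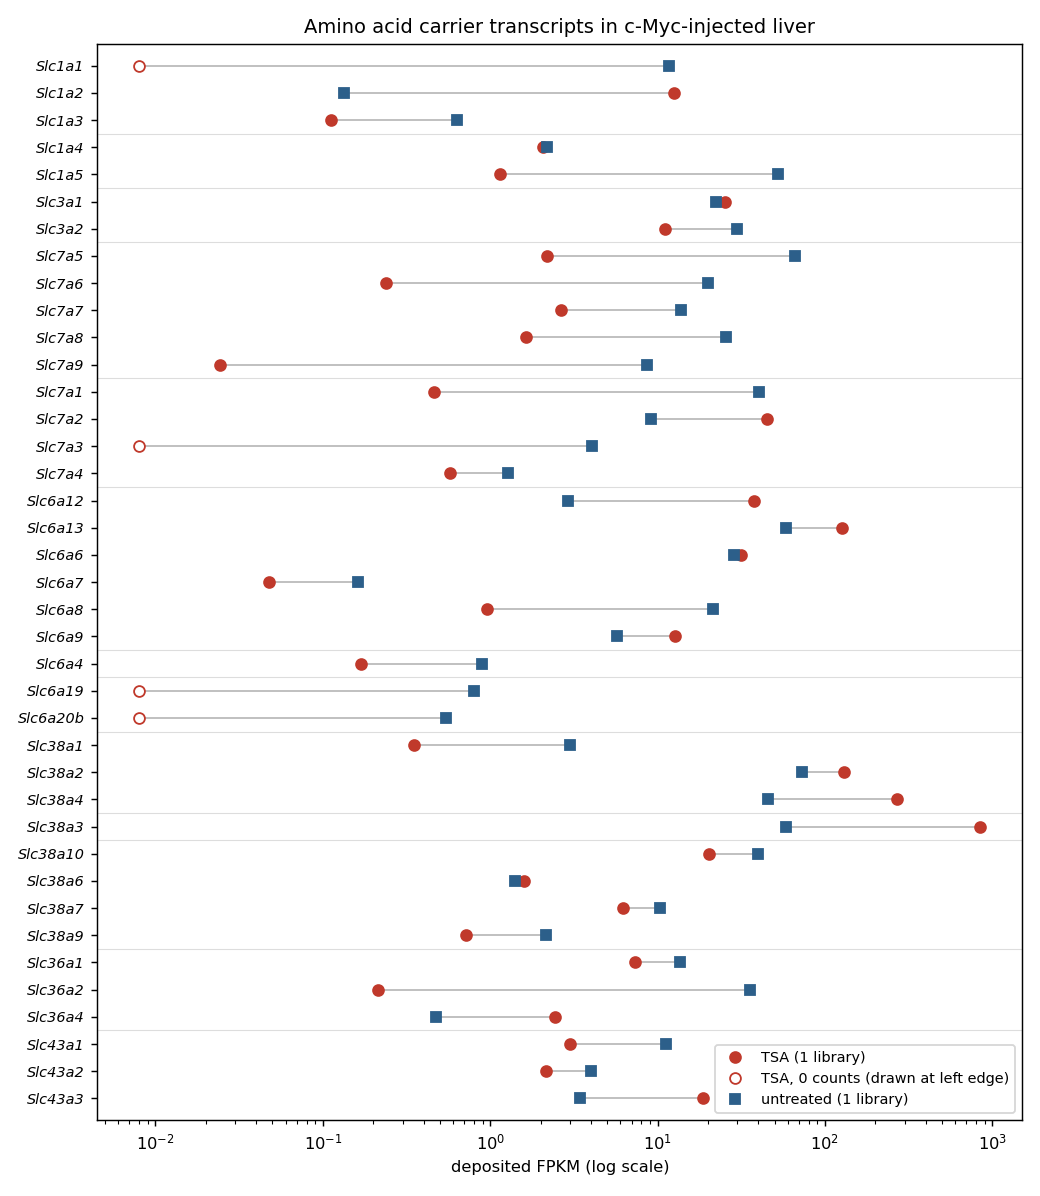
Deposited FPKM on a log axis of the 39 carriers with 20 or more summed counts, in the TSA library (circles) and the untreated library (squares), 1 library each, with rows grouped by role. Open circles at the left edge stand for 0 counts. *Slc38a3*, *Slc38a4* and *Slc1a2* lie far to the right with TSA, and *Slc1a1*, *Slc7a9*, *Slc36a2* and *Slc7a1* far to the left.

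Tissue markers moved between the libraries as well, and their calls are given here on TMM scaling first. Of all genes 26.0% were higher and 27.4% lower on that scale, and 16.0% and 48.7% with total counts. All 10 hepatocyte markers were detected in both libraries and called higher with TSA (9 with total counts), with summed FPKM of 65299 (TSA) and 4360 (untreated). Of 7 fetal liver and tumour markers 6 were lower (7 with total counts), at 21.4 summed FPKM with TSA and 4225 without treatment, with *Dlk1* at 0 counts in the TSA library. All 7 cell division markers were lower on both scales, at 3.09 with TSA and 455 without treatment. Endothelial markers were higher in 5 of 6 cases (3 with total counts), at 112 summed FPKM with TSA and 26.5 without treatment. Of 6 macrophage markers 4 were higher and 1 lower, but 2 and 2 with total counts, at 176 summed FPKM with TSA and 221 without treatment. Of 7 stellate markers 4 were higher and 1 lower, but 3 and 3 with total counts, at 113 with TSA and 85.0 without treatment. Of 6 cholangiocyte markers 3 were higher and 2 lower, and 2 and 2 with total counts, at 22.6 summed FPKM with TSA and 37.4 without treatment, with *Cftr* at 0 counts in the TSA library. Lymphocyte markers were higher in 4 of 7 cases (3 with total counts), at 7.86 summed FPKM with TSA and 4.88 without treatment. Neutrophil markers were higher in 3 of 4 cases (2 with total counts), at 9.27 with TSA and 3.29 without treatment, with *Ly6g* at 0 in both libraries. Erythroid markers were higher in 4 of 6 cases on both scales, at 420.3 with TSA and 149.7 without treatment, with *Hba-a2* at 0 with TSA. The part of tissue makeup in the carrier ratios was not tested, and in bulk liver fewer cells of a type and less RNA per cell cannot be told apart.

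Promoter sequence is shown for 4 called carriers, 2 of each direction, so that the bases before their start sites can be set side by side. RefSeq windows (GRCm38.p6) were given for 27 of the 39 carriers, and the windows shown belong to those of them, among the called carriers, with most counts in their higher library. The 250 bases before the most upstream start are printed 5′ to 3′. The higher carriers are *Slc38a4* and *Slc38a2*, and the lower ones *Slc7a1* and *Slc7a8*.
Slc38a4 (chr15:97055957-97056206, minus strand): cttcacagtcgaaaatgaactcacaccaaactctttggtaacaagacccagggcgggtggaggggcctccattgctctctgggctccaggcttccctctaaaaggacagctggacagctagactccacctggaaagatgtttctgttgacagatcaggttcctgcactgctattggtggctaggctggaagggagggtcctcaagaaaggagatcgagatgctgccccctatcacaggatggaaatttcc
Slc38a2 (chr15:96699729-96699978, minus strand): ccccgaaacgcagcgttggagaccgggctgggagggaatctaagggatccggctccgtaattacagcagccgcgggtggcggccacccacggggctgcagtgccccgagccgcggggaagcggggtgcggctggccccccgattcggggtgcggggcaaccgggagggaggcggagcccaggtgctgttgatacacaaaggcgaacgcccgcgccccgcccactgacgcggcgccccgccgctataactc
Slc7a1 (chr5:148399905-148400154, minus strand): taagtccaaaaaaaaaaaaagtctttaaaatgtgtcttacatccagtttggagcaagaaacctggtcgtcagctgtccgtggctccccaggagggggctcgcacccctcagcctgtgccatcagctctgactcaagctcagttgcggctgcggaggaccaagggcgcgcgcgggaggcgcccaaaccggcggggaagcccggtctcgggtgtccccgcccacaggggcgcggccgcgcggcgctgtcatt
Slc7a8 (chr14:54781887-54782136, minus strand): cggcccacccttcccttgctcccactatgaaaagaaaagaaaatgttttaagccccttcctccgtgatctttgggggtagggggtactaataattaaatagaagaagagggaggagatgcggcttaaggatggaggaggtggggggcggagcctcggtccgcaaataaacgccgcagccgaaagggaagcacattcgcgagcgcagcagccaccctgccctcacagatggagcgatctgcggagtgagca

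Base composition varied among the 4 promoters in both directions. *Slc38a4*, which codes for a liver system A carrier, has 52.8% G and C and 3 CG pairs in its 250 bases, whereas its genomic neighbour *Slc38a2* has 72.0% and 30 CG pairs. *Slc7a1* has 62.4% and 21 CG pairs, and *Slc7a8* 55.6% and 14. The median was 52.0% with 6 CG pairs over 27025 genes, 60.4% with 9 over the 9 higher carriers with a window, 57.6% with 14 over the 11 lower ones, and 60% with 13 over the 7 that were neither.

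Each 300-base window, from 250 before to 50 after the start, was also searched on both strands for TGATGNAA, a composite element of the type bound by the amino acid response factor ATF4, and for CACGTG, the E-box bound by MYC and MAX. No match of either motif overlapped a match of the other. In the first window of each gene TGATGNAA stood in 4.06% and CACGTG in 7.24% of 27025 genes. None of the 9 higher carriers held either motif in its first window. Among the 11 lower carriers *Slc7a7* held TGATGNAA at 2 places and *Slc43a1* held CACGTG. Among the 7 carriers that were neither, *Slc1a4* held TGATGNAA on the opposite strand, printed as TTGCATCA, and *Slc36a1* (at 2 places) and *Slc38a7* held CACGTG. The matches in first windows are printed with the motif in capitals.
Slc7a7 (chr14:54418068-54418095, minus strand): cgcttgggctTGATGAAAggttcactgg
Slc7a7 (chr14:54417928-54417955, minus strand): acctagaagcTGATGCAAcagcttcccc
Slc43a1 (chr2:84840248-84840275, plus strand): gggtctccctcCACGTGgcagccgtggg
Slc1a4 (chr11:20332700-20332727, minus strand): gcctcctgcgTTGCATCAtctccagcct
Slc36a1 (chr11:55204298-55204325, plus strand): gaatggagcggCACGTGacctgggctag
Slc36a1 (chr11:55204326-55204353, plus strand): ggagccagcatCACGTGacagggcccgg
Slc38a7 (chr8:95853509-95853536, minus strand): tgattcaggctCACGTGttacttgagtc

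Such a match is a description of letters and no measure of binding. The first windows of *Slc7a1* and *Slc7a8* held neither motif, and neither did those of *Slc38a2* and *Slc38a4*. Over all 45 windows given for the tested carriers, some of which have several, each motif stood in 3 (6.67%). Of all 32851 windows 3.97% held TGATGNAA and 7.15% CACGTG.

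The sodium-coupled neutral carriers of the Slc38 family held most of the carrier transcript in the TSA library. *Slc38a3* had 43930 counts with TSA and 3079 counts without treatment, 26.0-fold (25.1 to 27.0) higher. *Slc38a4*, a system A carrier of the liver and an imprinted gene in mouse, had 20094 counts with TSA and 3474 without treatment and was 10.6-fold (10.2 to 10.9) higher. *Slc38a2*, the system A carrier that many cell types raise when amino acids are short, had 10317 counts with TSA and 5887 without treatment. It was 3.20-fold (3.10 to 3.30) higher with TMM and 1.77-fold with total counts, at which it was not called. *Slc38a1*, the third system A carrier and better known from brain, went the other way, with 51 counts with TSA and 445 without treatment, 4.78-fold (3.57 to 6.52) lower. Of the 3 system A genes 2 were therefore higher and 1 lower, although the summed FPKM was 399 with TSA and 122 without treatment. The second system N gene, *Slc38a5*, had 0 counts with TSA and 2 without treatment, which is too few to compare.

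The lysosomal and less studied Slc38 members were nearer to equal on TMM scaling. *Slc38a10* had 2153 counts with TSA and 4254 without treatment, a ratio of 0.924 (0.877 to 0.973). *Slc38a7*, a glutamine carrier of the lysosome, stood at 377 counts with TSA and 635 without treatment, a ratio of 1.08 (0.951 to 1.23). *Slc38a9*, which senses arginine at the lysosome for mTORC1, had 137 counts with TSA and 419 without treatment and lay 1.68-fold (1.38 to 2.05) below the untreated level; with total counts it was called lower. *Slc38a6* had 209 counts with TSA and 187 without treatment, a ratio of 2.04 (1.67 to 2.50) that passed the threshold with TMM but was 1.13 with total counts. Its locus overlaps *Trmt5* (110 counts with TSA and 421 without treatment) in RefSeq, so that some reads may be shared.

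Carrier transcript was concentrated in few genes with TSA and spread over many without treatment. *Slc38a3* alone made up 52.2% of the summed carrier FPKM of the TSA library, followed by *Slc38a4* with 16.5%, *Slc38a2* with 7.99% and *Slc6a13* with 7.73%. Together these 4 genes held 84.5%. In the untreated library the first 4 genes were *Slc38a2* with 10.01%, *Slc7a5* with 9.11%, *Slc38a3* with 8.04% and *Slc6a13* with 7.98%, together 35.1%. The summed FPKM of the 62 carrier rows was 1624 with TSA and 731 without treatment, but the number of carriers at 10 FPKM or more on that deposited scale was 13 with TSA and 20 without treatment. *Slc38a3* stood at the 99.7th percentile of all genes by FPKM with TSA and at the 93.8th without treatment. *Slc7a5* moved to the 62.1st percentile with TSA, against the 94.6th without treatment.

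**Figure D2:**
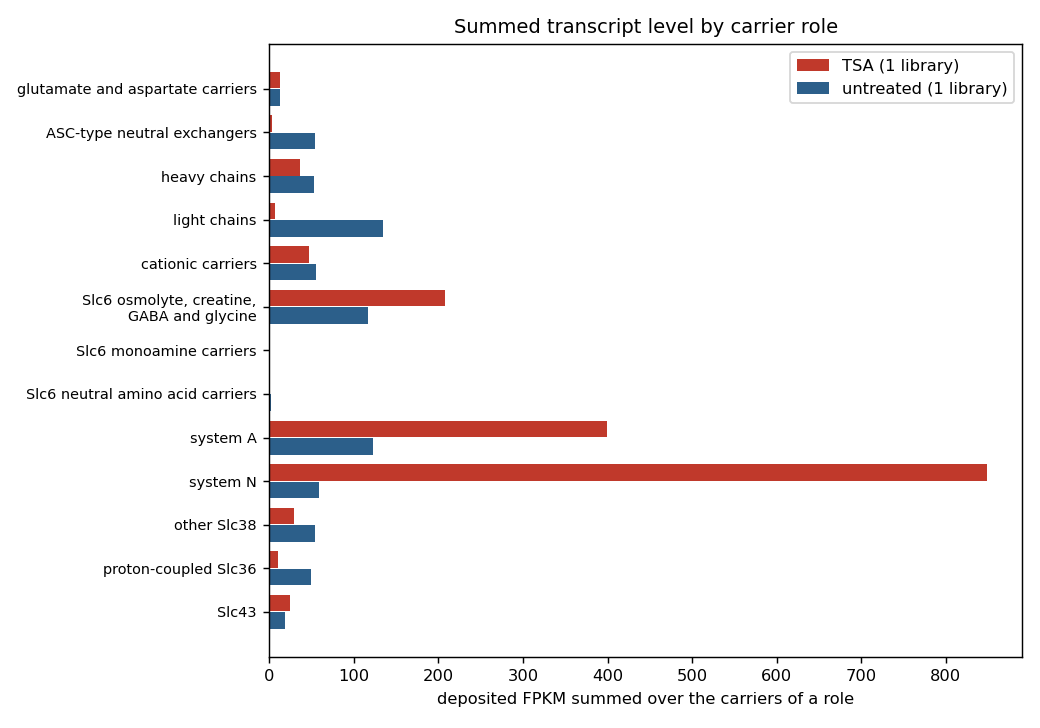
Deposited FPKM summed over the carriers of each role, for the TSA library (upper bar of each pair) and the untreated library (lower bar), 1 library each. System N reached 848 with TSA and 58.9 without treatment, and light chains 6.75 with TSA and 134 without treatment.

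Of the neutral amino acid exchangers of the Slc1 family, *Slc1a5* was scarce with TSA only. *Slc1a4* was scarce in both libraries, at 2.07 FPKM with TSA and 2.18 FPKM without treatment. *Slc1a5*, the glutamine exchanger ASCT2 of dividing cells, had 54 counts in the TSA library and 2483 in the untreated library, 25.2-fold (19.2 to 33.6) lower. Its level was 1.15 FPKM with TSA, against 52.1 FPKM without treatment. In the TSA library *Slc38a3* had 740-fold the FPKM of *Slc1a5*, and in the untreated library 1.13-fold. *Slc1a4*, the related exchanger of alanine, serine and cysteine, had 139 counts with TSA and 148 without treatment, a ratio of 1.71 (1.35 to 2.18), and was not called.

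The glutamate carriers of the same family differed in opposite directions. *Slc1a2*, the high-affinity glutamate carrier found in brain glia and in hepatocytes around the central vein, had 2808 counts with TSA and 30 without treatment. It was 171-fold (119 to 254) higher, the largest ratio among the carriers, and 94.7-fold higher with total counts. *Slc1a1*, the glutamate carrier of epithelia and neurons, had 0 counts with TSA and 748 without treatment. Against a floor of 3 counts per library it was 137-fold lower, with a 95% limit of at least 111-fold. *Slc1a3*, a glial glutamate carrier, was low in both libraries at 8 counts with TSA and 46 without treatment, 3.15-fold (1.47 to 7.73) lower. Summed over the family's glutamate carriers the deposited level was 12.7 FPKM with TSA and 12.5 FPKM without treatment, a ratio of 1.02, or 1.84 with the TMM factor; *Slc1a2* (12.6 FPKM) and *Slc1a1* (11.7 FPKM) each supplied nearly all of it in their own library.

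Every light chain with enough counts was lower with TSA. All 5 of them, *Slc7a5*, *Slc7a6*, *Slc7a7*, *Slc7a8* and *Slc7a9*, were called lower on TMM scaling and on total counts, and their median log2 ratio was -4.07. Of all genes 27.4% were lower on TMM scaling and 48.7% on total counts. *Slc7a5* had 132 counts with TSA and 4042 without treatment, 16.8-fold (14.1 to 20.1) lower. *Slc7a6*, which exchanges arginine for glutamine, had 19 counts with TSA and 1601 without treatment, 46.2-fold (29.5 to 76.9) lower. *Slc7a8*, a broad neutral exchanger, had 114 counts with TSA and 1784 without treatment, 8.57-fold (7.09 to 10.5) lower. *Slc7a7*, the gene mutated in human lysinuric protein intolerance, differed least with 134 counts with TSA and 707 without treatment, 2.89-fold (2.40 to 3.504) lower, and its locus overlaps *Oxa1l* (969 counts with TSA and 3184 without treatment). *Slc7a9*, the cystine light chain, had 1 counts with TSA and 358 without treatment, a ratio of 196-fold lower with a wide interval (35.0 to 7769). *Slc7a11*, which takes up cystine in exchange for glutamate, had 1 counts with TSA and 5 without treatment and was not tested, and *Slc7a10* had none in either library.

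The 2 heavy chains differed less than the tested light chains that pair with them. *Slc3a2*, the heavy chain of most light chains, had 1146 counts with TSA and 3102 without treatment. It lay 1.48-fold (1.39 to 1.59) below the untreated level with TMM, which was not called, and was called lower with total counts (ratio 0.374). *Slc3a1*, the heavy chain that pairs with *Slc7a9*, had 997 counts with TSA and 896 without treatment, a ratio of 2.03 (1.85 to 2.23) with TMM and 1.13 with total counts. Its locus overlaps *Prepl* (596 counts with TSA and 769 without treatment). The light chains that pair with *Slc3a2* summed to 6.72 FPKM with TSA, 0.605 times the 11.1 FPKM of the heavy chain. In the untreated library they summed to 126 FPKM, 4.22 times the 29.8 FPKM of the heavy chain. For *Slc3a1* the light chain sum was 0.0244 FPKM beside 25.3 FPKM with TSA, and 8.67 FPKM beside 22.5 FPKM without treatment.

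**Figure D3:**
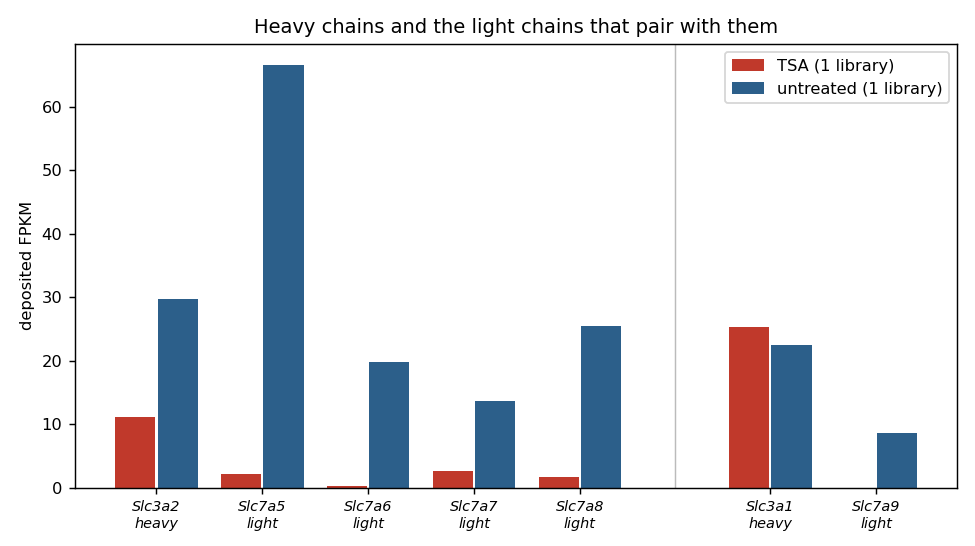
Deposited FPKM of the 2 heavy chains and of the 5 light chains with 20 or more summed counts, placed beside the heavy chain each pairs with, in the TSA library (left bar) and the untreated library (right bar), 1 library each. With TSA all its light chains stand under *Slc3a2*, without treatment *Slc7a5* stands above it, and *Slc3a1* is at 25.3 FPKM with TSA and 22.5 FPKM without treatment.

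Carriers of arginine and lysine also differed in opposite directions. *Slc7a2*, the low-affinity carrier of adult liver, had 6974 counts with TSA and 1419 without treatment, 8.97-fold (8.47 to 9.50) higher. *Slc7a1* had 58 counts with TSA and 5161 without treatment, 48.8-fold (37.7 to 64.3) lower. On the FPKM scale *Slc7a2* was 98.6 times *Slc7a1* with TSA, and *Slc7a1* was 4.44 times *Slc7a2* without treatment. The sum over the cationic carriers was 46.4 FPKM with TSA and 55.0 FPKM without treatment, a ratio of 0.844, which became 1.52 with the TMM factor. *Slc7a3*, a cationic carrier known from brain, had 0 counts with TSA and 211 without treatment and was at least 38.5-fold lower; it overlaps *Snx12* (284 counts with TSA and 888 without treatment). *Slc7a4*, for which no transport is established, had 37 counts with TSA and 84 without treatment, a ratio of 0.804 (0.531 to 1.197) with TMM, and was called lower with total counts.

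Of the 6 tested Slc6 carriers of osmolytes, creatine, GABA, glycine and proline, 3 were called higher and 1 lower with TMM, and 3 and 2 with total counts. The shares of all genes were 26.0% higher and 27.4% lower with TMM, and 16.0% and 48.7% with total counts. *Slc6a12*, the betaine and GABA carrier, had 1925 counts with TSA and 152 without treatment, 23.1-fold (19.6 to 27.4) higher. Its genomic neighbour *Slc6a13*, which carries GABA and taurine in liver, had 5040 counts with TSA and 2369 without treatment, 3.88-fold (3.70 to 4.08) higher and 2.15-fold with total counts. *Slc6a9*, the glycine carrier, had 747 counts with TSA and 341 without treatment, 3.998-fold (3.51 to 4.56) higher, and shares its locus with *Ccdc24* (2 counts with TSA and 71 without treatment). *Slc6a6*, the taurine carrier, had 3384 counts with TSA and 3112 without treatment and a ratio of 1.98 (1.89 to 2.08), just under the threshold; with total counts the ratio was 1.10. *Slc6a8*, the creatine carrier, was the member called lower with TMM, with 65 counts with TSA and 1468 without treatment, 12.4-fold (9.65 to 16.1).

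The remaining Slc6 genes were scarce. *Slc6a19*, the main neutral amino acid carrier of gut and kidney, had 0 counts with TSA and 59 without treatment, at least 10.8-fold lower. *Slc6a20b*, an imino acid carrier, had 0 counts with TSA and 31 without treatment, at least 5.66-fold lower, and its near copy *Slc6a20a* had 0 counts with TSA and 13 without treatment, so reads may have been split between them. *Slc6a4*, the serotonin carrier, had 9 counts with TSA and 48 without treatment, 2.92-fold (1.42 to 6.77) lower. *Slc6a7*, the proline carrier of brain, had 7 counts with TSA and 24 without treatment, with an interval of the ratio from 0.194 to 1.27. None of them exceeded 1 FPKM in either library.

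The proton-coupled Slc36 carriers and the Slc43 carriers each split 3 ways. *Slc36a2*, a glycine and proline carrier known from kidney and muscle, had 9 counts with TSA and 1502 without treatment, 91.4-fold (48.0 to 200.4) lower. *Slc36a4*, whose human counterpart carries proline and tryptophan, had 253 counts with TSA and 50 without treatment, 9.24-fold (6.796 to 12.8) higher. *Slc36a1*, which exports amino acids from lysosomes, had 665 counts with TSA and 1240 without treatment, a ratio of 0.979 (0.889 to 1.08). Among the Slc43 genes *Slc43a3*, which carries purine nucleobases, had 1067 counts with TSA and 200 without treatment, 9.74-fold (8.36 to 11.4) higher. *Slc43a1*, a carrier of large neutral amino acids, had 196 counts with TSA and 741 without treatment, 2.07-fold (1.77 to 2.44) lower. *Slc43a2*, its close relative, had 305 counts with TSA and 572 without treatment, a ratio of 0.973 (0.844 to 1.12).

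**Figure D4:**
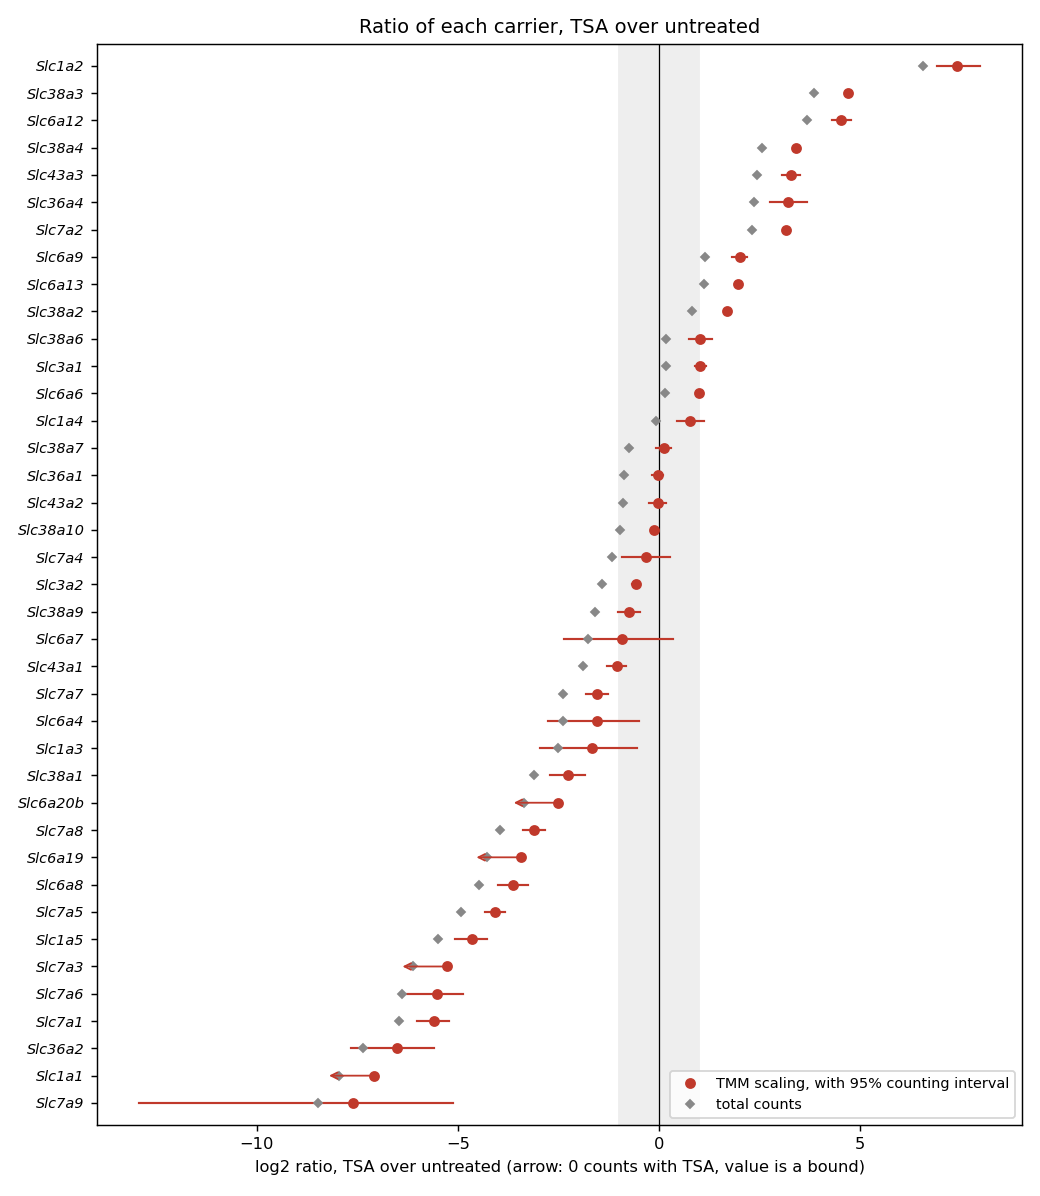
Log2 ratio of each of the 39 carriers, TSA over untreated, with TMM scaling (circles, bars are 95% counting intervals) and with total counts (diamonds). Arrows mark genes with 0 counts in the TSA library, whose circle is a bound, and the grey band spans ratios under 2 in either direction. *Slc1a2* is highest at 7.42 and *Slc7a9* lowest at -7.62 on TMM scaling.

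*Slc7a6os*, on the strand opposite *Slc7a6* and next to it, had 190 counts with TSA and 815 without treatment, 2.35-fold (2.005 to 2.77) lower. Of the 24 members under 20 counts 12 had 0 counts in both libraries, which allows up to 3 counts each. These were *Slc1a7*, *Slc36a3*, *Slc6a2*, *Slc6a3*, *Slc6a5*, *Slc6a11*, *Slc6a14*, *Slc6a18*, *Slc6a19os*, *Slc7a10*, *Slc7a12* and *Slc7a14*. The other 12 had between 1 and 13 summed counts, among them *Slc1a6*, *Slc6a15*, *Slc6a17*, *Slc7a13*, *Slc7a15*, *Slc38a8* and *Slc38a11*. At the edge of the count rule *Slc6a7* and *Slc6a20b* had 31 summed counts each, just inside it, while *Slc6a16* and *Slc6a20a* had 13 each, just outside. *Slc6a16* was the one untested member with more than 1 count in the TSA library, 12 against 1 without treatment.

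Further lists put the carriers beside related genes. Of 10 other amino acid and peptide carriers with enough counts TMM scaling called 6 higher (60%, beside 26.0% of all genes) and 1 lower (beside 27.4%). Total counts gave 1 higher and 1 lower, beside 16.0% and 48.7% of all genes. *Slc16a10*, the aromatic amino acid carrier, had 3141 counts with TSA and 2840 without treatment, a ratio of 2.02. *Slc16a12*, a creatine carrier, had 3122 counts with TSA and 1920 without treatment, a ratio of 2.97. *Slc17a8*, a vesicular glutamate carrier, was 79.3-fold higher with 304 counts with TSA and 7 without treatment. *Mfsd12*, a carrier gene of lysosomes and melanosomes, was 3.25-fold lower with 237 counts with TSA and 1405 without treatment.

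Partners and regulators of carriers were called higher in 1 of 9 cases, beside 26.0% of all genes. They were called lower in 3 (33.3%, beside 27.4% of all genes). With total counts 1 was higher and 4 lower, beside 16.0% and 48.7% of all genes. *Ggt1*, for the enzyme that splits glutathione outside the cell, had 18 counts with TSA and 5339 without treatment, 163-fold lower. *Nedd4*, a ubiquitin ligase gene, was 2.28-fold lower at 6557 counts with TSA and 27240 without treatment, and *Anpep*, for a membrane aminopeptidase, was not called at 3739 counts with TSA and 5776 without treatment. *Sgk1*, for a kinase known to raise carrier activity, was 7.26-fold higher at 1038 counts with TSA and 261 without treatment.

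Genes of the ATF4 amino acid response, to which several carriers belong, were called at shares near those of all genes with TMM, 7 of 21 higher (33.3%, beside 26.0%) and 6 lower (28.6%, beside 27.4%). On the scale of total counts 6 of the 21 were higher and 8 lower, beside 16.0% and 48.7% of all genes. *Atf4* itself, chosen after its values were seen, had 1258 counts with TSA and 1931 without treatment, a ratio of 1.19. *Phgdh*, for the first enzyme of serine synthesis, had 41 counts with TSA and 13651 without treatment, 182-fold lower. *Psat1*, for the next enzyme of that pathway, had 60 counts with TSA and 13092 without treatment, 120-fold lower. *Asns*, for asparagine synthetase, also chosen after its values were seen, was 116-fold lower at 26 counts with TSA and 5514 without treatment. *Phgdh*, *Psat1* and *Asns* are all among the 6 lower genes. The 7 higher genes included *Vldlr*, 16.0-fold higher at 395 counts with TSA and 45 without treatment. They also included *Atf3*, 11.4-fold higher at 517 counts with TSA and 83 without treatment. Both were likewise chosen after their values were seen.

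Of 23 genes of lysosomal amino acid sensing TMM scaling called 3 higher, 4 lower and 16 neither, whereas total counts gave 1 higher and 11 lower. The lower share with total counts, 47.8%, is near the 48.7% of all genes, and with TMM 13.0% were higher and 17.4% lower, beside 26.0% and 27.4% of all genes. *Rragb*, for a Rag GTPase that recruits mTORC1 to the lysosome, had 3 counts with TSA and 83 without treatment, 15.2-fold (5.01 to 75.0) lower. *Rragd*, for another of them, had 24 counts with TSA and 334 without treatment, 7.63-fold lower. *Seh1l* (676 counts with TSA and 2275 without treatment) and *Sec13* (962 counts with TSA and 1562 without treatment), for subunits of the GATOR complex that also serve elsewhere in the cell, were not called with TMM.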

How the data were processed

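PolyA RNA of 2 liver libraries was analysed, grouped by the treatment in the labels. The deposited counts are unscaled reads per gene symbol, per the file headers and values. The authors' FPKM equals the count over gene model length and library total: the implied length came out whole and the same in each library, to 0.1 base, in each of 14271 genes with counts in the 2 libraries. The submitters' processing notes name Trimmomatic, HISAT2, Bowtie2 and DESeq without roles or versions. Build, annotation, counter and strandedness are not stated in the sources, so overlapping and antisense genes may share reads.

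TMM factors came from edgeR 4.0.16 in R 4.3.3, 0.744 for the TSA and 1.34 for the untreated library. Intervals of ratios are 95% exact conditional binomial (Clopper-Pearson) and cover counting error only, since each group had 1 library. PCR copies were not separated from distinct molecules, so the intervals may be too narrow even for counting error. Counts of 0 took a floor of 3 counts, and no ratio is given where each library was at or under 3. The minimum of 20 counts applied to the sum over both libraries. Alternatives were total counts, upper quartiles, DESeq2 1.42.0 size factors, other count minimums and thresholds, a prior count and the deposited FPKM.

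The members and gene lists were chosen with earlier results of these data known. Every member with 20 or more counts is named. Of the members under that minimum, 1 is not reported here. Each further list gives its 2 most abundant genes by counts and the 2 that differ most, among genes with at least 50 counts. All 64 symbols matched RefSeq (GRCm38.p6), the source of neighbours, overlaps and promoters. Scripts ran in Python 3.11.15 (numpy 2.4.6, scipy 1.17.1, pandas 2.3.3, matplotlib 3.10.9).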

Additional observations from a re-analysis of the deposited data

How the results depend on the processing

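No paired analysis was possible because each group had 1 library, and no library could be left out. Of the 30 called members none changed direction under any alternative. A change of scale could not have reversed a call, since a call needs 2-fold and the largest shift was 1.80-fold. Other thresholds and count minimums left the ratios as they were. Total counts and the deposited FPKM with 0.1 added lost the calls of *Slc38a2*, *Slc38a6* and *Slc3a1* and kept the other 27. Total counts added 4 lower calls (*Slc38a9*, *Slc3a2*, *Slc6a7* and *Slc7a4*), and DESeq2 size factors and upper quartiles each added *Slc6a6* as higher. A threshold of 4-fold left 20 of the 30 calls and an interval bound of at least 2-fold 25. At 4-fold 7 of the 40 members were higher and 13 lower, beside 1951 and 1640 of all 13027 genes.

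Over all genes, 2084 were higher and 6339 lower with total counts, 1983 and 6186 with the deposited FPKM, and 1951 and 1640 at 4-fold, against 3382 and 3573 in the main analysis. The median of the members minus that of all genes was -0.55, and 0.047 with a minimum of 100 counts, a reversal; fewer members were then tested. Among the other amino acid and peptide carriers 1 was higher with total counts, 1 with the deposited FPKM and 1 at 4-fold, at which 0 were lower. In the lysosomal sensing list 1 was higher and 11 lower with total counts and with the deposited FPKM, and 0 and 2 at 4-fold. Without a count minimum 2 carrier partners were higher. Ratios of members under 60 summed counts rest on few reads, and their intervals are correspondingly wide.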

Other observations

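Some carriers lie beside each other in the genome. In the RefSeq order of protein-coding genes *Slc38a1*, *Slc38a2* and *Slc38a4* follow each other directly on chromosome 15; *Slc38a1* was lower with TSA, and *Slc38a2* and *Slc38a4* higher. *Slc43a1* (lower) and *Slc43a3* (higher) lie on chromosome 2 with 1 coding gene between them. *Slc36a2* (lower) and *Slc36a1* (neither) are neighbours on chromosome 11, and *Slc6a13* and *Slc6a12* (both higher) on chromosome 6.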
